A study of Mus musculus with 6 samples.

Results

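Ribosome biogenesis is the making of ribosomal RNA and its assembly with ribosomal proteins, and it takes place mainly in the nucleolus. The 40 genes described here are Myc and 39 nucleolar and ribosome assembly genes, chosen by symbol from a list, and all 40 were found among 55385 gene entries, each with a single entry. Bulk RNA was sequenced from mouse skin squamous cell carcinoma (SCC) induced by DMBA, a carcinogen, followed by TPA, which promotes tumour growth. The series text calls cells with high Itga6 (integrin alpha 6) and the co-stimulatory ligand CD80 tumour stem-like cells (here Itga6hi CD80pos). It calls cells with low Itga6 and no CD80 differentiated cancer cells (here Itga6low CD80neg). Each group had 2 libraries, and 2 further libraries with high Itga6 and no CD80 were not analysed here. The labels give polyA RNA from skin SCC for all groups, made into libraries with a kit for low input, and they give no strain, genotype, age, gate beyond the 2 markers, or number of animals. Nothing says that replicates are separate animals, so p-values reflect the spread of these libraries alone, which may be technical.

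Myc is a transcription factor that pairs with Max, binds E-box sequences and is known to raise transcription by RNA polymerase I together with many genes of ribosome assembly. Polymerase I copies the rRNA genes, small nucleolar ribonucleoproteins (snoRNPs) then guide methylation and pseudouridylation of the transcript, and assembly factors fold and trim it into the small and the large subunit. Growing epithelial cells and many carcinomas are known for high activity of this pathway.

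The values are TPM, a transcript level per length, scaled to one total in every library. Haemoglobin genes made up 0.0185 and 0.00621% of TPM in the Itga6hi CD80pos libraries, against 70.9 and 50.4% in the Itga6low CD80neg libraries, so they were left out and the rest was scaled again to the same total. Red blood cell markers other than haemoglobin stayed in that total. They summed to 14.3 and 8.21 TPM in Itga6hi CD80pos, against 10530 and 3649 TPM in Itga6low CD80neg, and the 5 tested were all lower. The depth of the libraries is unknown, because TPM keep no record of it. Itga6 stood at 178 and 339 TPM in Itga6hi CD80pos and at 5.15 and 3.33 TPM in Itga6low CD80neg. Cd80 overlapped between the groups, at 6.24 and 1.89 TPM in Itga6hi CD80pos and 2.21 and 1.14 TPM in Itga6low CD80neg. The 2 groups also differed in markers of cell types. Keratin genes held 8.39 and 7.499% of the rescaled total in Itga6hi CD80pos, against 1.78 and 3.07% in Itga6low CD80neg. Of 15 fibroblast markers, 14 were lower in Itga6hi CD80pos, and they summed to 158 and 296 TPM there, against 43409 and 19005 TPM in Itga6low CD80neg. The collagen gene Col3a1 alone was at 2.22 and 2.56 TPM, against 10195 and 4279 TPM. Of 17 keratinocyte markers, 10 were higher, with sums of 73369 and 68134 TPM against 12106 and 20969 TPM in Itga6low CD80neg. Markers of T, NK and B cells summed to 0.767 and 0.4397 TPM against 15.2 and 21.2 TPM, and those of macrophages and dendritic cells to 14.8 and 11.5 TPM against 49.3 and 52.2 TPM. The 5 tested of 9 melanocyte and Schwann cell markers were all lower, with Dct at 0.245 and 0.427 TPM against 51.1 and 107 TPM. Neutrophil markers summed to 1091 and 777 TPM against 2156 and 5293 TPM, with 1 of 5 tested lower. Endothelial and pericyte markers summed to 37.7 and 43.7 TPM against 527 and 400.5 TPM, with 2 of 5 tested lower. Sums of muscle and adipocyte markers overlapped, at 1041 and 349.8 TPM against 647 and 444 TPM. Yet 3 of the 4 tested were lower and 0 higher, with a median log2 fold change of -5.15. Cd3g, Cd8a, Cd4, Nkg7, Fcgr3, Retnlg and Ly6g, markers of leukocytes, were listed at 0 in both Itga6hi CD80pos libraries, and Adipoq, of adipocytes, in all 4. The part of this mix of cells in the results below was not tested, and in bulk RNA fewer cells of a type and less RNA per cell cannot be told apart.

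The 40 genes lie on 18 chromosomes, with Myc at chr15:61985391-61990374 on the plus strand (GRCm38). Of them 34 had an entry in RefSeq's promoter table (GRCm38.p6), which gives 250 bases before to 50 after a gene's start. The canonical E-box, CACGTG, which reads the same on both strands, was found in 5 of these 34 genes (14.7%), against 11.7% of 9860 tested genes with an entry and 8.09% of all 27025 genes of the table. The share among the 40 genes was thus near that of tested genes, and a match or its absence in this window says nothing of binding. The 250 bases before the start are shown for Rrn3 and Nop2, the genes with an E-box on this side of the start, and for Polr1b, which had the highest fold change of the 40 and no E-box in its window. E-boxes are in capitals, and they begin 215 and 48 bases before the start of Rrn3 and 60 bases before that of Nop2. The windows of Rrn3, Nop2 and Polr1b, in this order, lie on the plus strand at chr16:13780449-13780698, chr6:125131633-125131882 and chr2:129100746-129100995.
Rrn3: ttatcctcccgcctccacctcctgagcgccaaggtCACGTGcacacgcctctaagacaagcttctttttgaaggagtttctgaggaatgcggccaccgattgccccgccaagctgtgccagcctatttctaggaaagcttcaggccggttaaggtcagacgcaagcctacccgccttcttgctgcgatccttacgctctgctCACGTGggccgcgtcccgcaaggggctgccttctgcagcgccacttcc
Nop2: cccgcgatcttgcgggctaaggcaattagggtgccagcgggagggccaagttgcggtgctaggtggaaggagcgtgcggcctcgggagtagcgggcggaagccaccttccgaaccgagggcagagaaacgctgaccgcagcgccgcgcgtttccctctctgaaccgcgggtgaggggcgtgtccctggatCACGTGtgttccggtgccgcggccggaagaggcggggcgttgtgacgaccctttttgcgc
Polr1b: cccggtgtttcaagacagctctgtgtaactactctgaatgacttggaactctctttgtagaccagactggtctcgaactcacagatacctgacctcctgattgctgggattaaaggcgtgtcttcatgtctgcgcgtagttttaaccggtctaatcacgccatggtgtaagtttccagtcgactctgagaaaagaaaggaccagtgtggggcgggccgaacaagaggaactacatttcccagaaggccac

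Several of the genes carry small nucleolar RNAs (snoRNAs) in their own bodies. In GENCODE M21, 7 of the 40 (17.5%) hold at least 1 annotated snoRNA gene on their own strand, against 1.80% of 12029 tested protein-coding genes. These are Ncl, Nop56, Nop58, Dkc1, Wdr43, Gnl3 and Ppan, with 21 snoRNA genes in all. A pair is shown because the host encodes a core protein of the same class of snoRNP that the RNA enters. Snord110 lies in Nop56 (chr2:130275506-130275573, plus strand) and Snord11 in Nop58 (chr1:59704790-59704873, plus strand), and the capitals mark the letters TGATGA of box C near the start and CTGA of box D near the end.
Snord110: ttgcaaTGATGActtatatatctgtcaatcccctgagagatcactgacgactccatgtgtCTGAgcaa
Snord11: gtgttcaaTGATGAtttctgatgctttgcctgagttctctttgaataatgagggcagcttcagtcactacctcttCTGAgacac
The snoRNAs themselves were hardly seen in these polyA libraries, where 14 of the 21 were listed at 0 throughout. Of the 7 host genes, 5 were among those higher in Itga6hi CD80pos below, Wdr43 and Gnl3 being the other two.

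Most of the ribosome biogenesis genes were higher in Itga6hi CD80pos cells, and Myc did not pass the test. In 39 of 40 genes both Itga6hi CD80pos libraries lay above both Itga6low CD80neg libraries, against 38.3% of all genes tested, and the exception was Myc. By limma on log2(TPM + 1), 24 of 40 passed as higher at a Benjamini-Hochberg adjusted p under 0.05 over 13468 genes, and 0 as lower, where 7.71% of all genes tested (1039) were higher and 10.8% (1458) lower. On deposited TPM, with haemoglobin kept in the total, all 40 passed, where 57.0% of all genes tested were higher (7686) and 9.48% lower (1277). With mitochondrial, ribosomal protein and keratin genes left out as well, 32 passed, where 13.6% were higher (1811) and 11.1% lower (1483). The median log2 fold change (Itga6hi CD80pos over Itga6low CD80neg, as everywhere here) was 1.53 over the 40 genes and 0.16 over all genes. Summed over the 40 genes, the level was 5143 and 4689 TPM in Itga6hi CD80pos, against 1744 and 2060 TPM in Itga6low CD80neg. The group means were 4916 ± 321 TPM and 1902 ± 223 TPM (SD, n = 2 each), a 2.58-fold difference, and it was 2.52-fold without Npm1, the most abundant of them. The test rests on few libraries. Without either Itga6hi CD80pos library limma called 0 of 40 genes, and 0 of all genes, although 16 of the 40 without replicate 1 and 20 without replicate 2 had an unadjusted p under 0.05. The median log2 fold change of the 40 was then 1.43 and 1.59. Without Itga6low CD80neg replicate 1, 28 passed (13.7% of all genes higher, 10.8% lower), and without its replicate 2, 29 (13.5% higher, 17.7% lower). Nob1 lost its call in both, Myc, Polr1c, Ubtf, Nop14 and Utp20 gained one without replicate 1, and Polr1d, Nhp2, Pes1, Nip7, Mrto4 and Ebna1bp2 gained one without replicate 2. With no filter on low values, which tests 30652 genes, 0 of the 40 passed by limma (36 at an unadjusted p under 0.05), against 0.0326% of all genes higher and 0.365% lower.

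**Figure D1:**
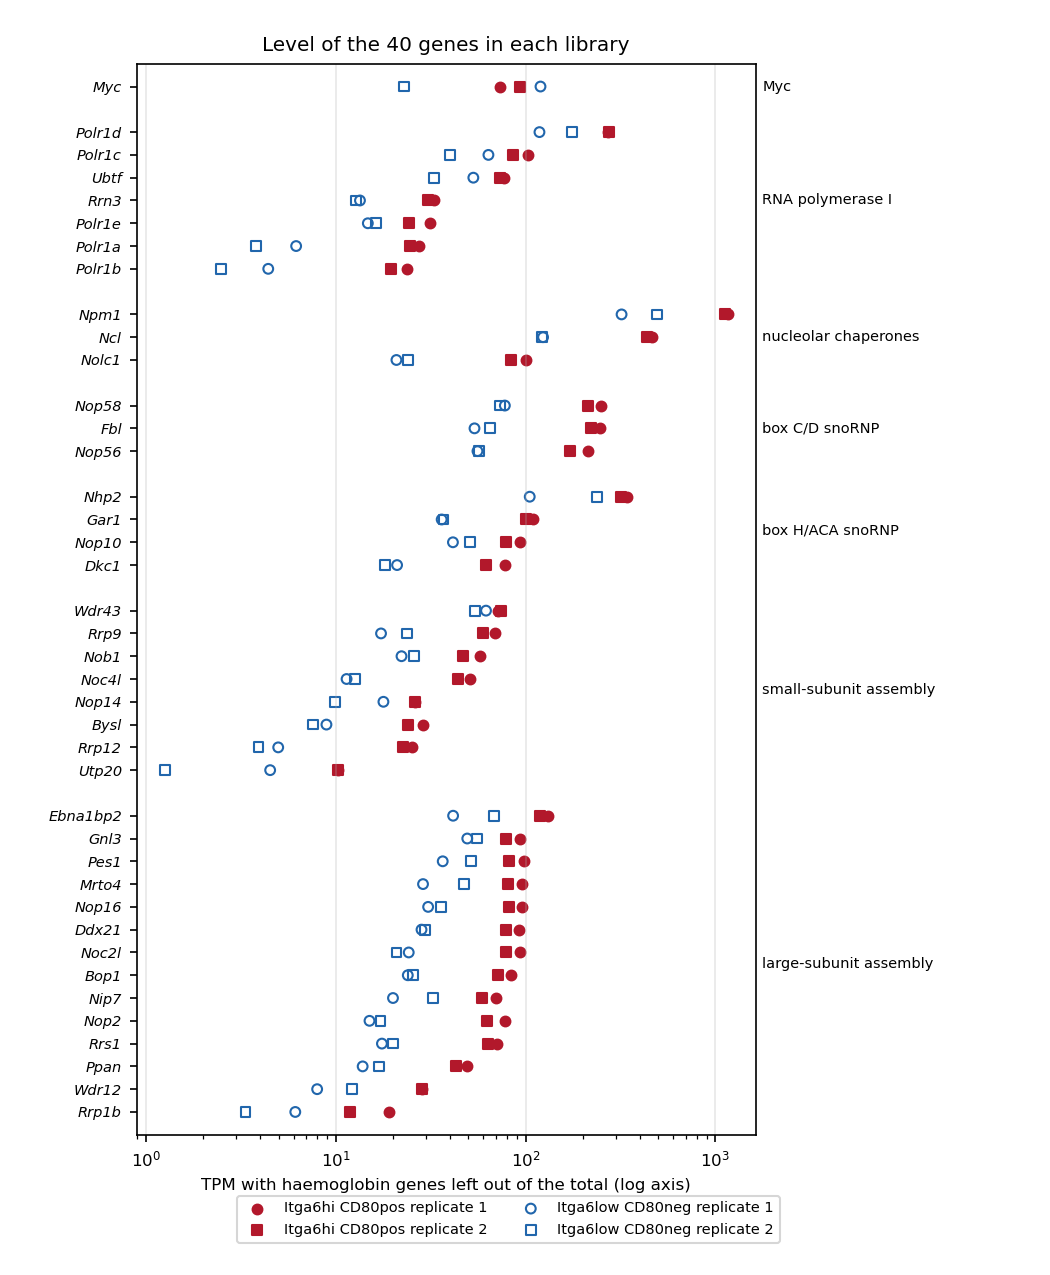
Level of each of the 40 genes in each library, as TPM with haemoglobin genes left out (log axis), by role; filled red symbols are the 2 Itga6hi CD80pos libraries and open blue symbols the 2 Itga6low CD80neg libraries. Only for Myc do the blue symbols fall on both sides of the red ones.

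Myc stood at 73.0 and 93.5 TPM in Itga6hi CD80pos, against 119.9 and 22.9 TPM in Itga6low CD80neg. The Itga6low CD80neg libraries thus lay on either side of both others and differed 5.24-fold from each other. Its log2 fold change was 0.64 ± 0.79 (SE), with a limma adjusted p of 0.601. The sign depended on 1 library, with 1.81 without Itga6low CD80neg replicate 1 (limma adjusted p = 0.0403) and -0.53 without its replicate 2 (adjusted p = 0.178). On deposited TPM Myc passed as higher (log2 fold change 1.99, limma adjusted p = 0.0291), where the median of all genes was 1.27. Relative to Ncl in the same library, a ratio that a single factor per library does not change, Myc stood at 0.157 and 0.215 in Itga6hi CD80pos, against 0.969 and 0.187 in Itga6low CD80neg.

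Of 11 tested genes of the Myc network, its partners and antagonists, limma called 0, and 1 had an unadjusted p under 0.05, a lower one. The count depended on single Itga6low CD80neg libraries, as did the share of all genes higher, and on the scaling. On deposited TPM 8 of the 11 were higher, where 57.0% of all genes tested were higher. Max, the obligate partner, was at 42.4 and 44.3 TPM in Itga6hi CD80pos and 42.1 and 41.7 TPM in Itga6low CD80neg, a log2 fold change of 0.05 ± 0.22 (SE). Mxd4, a Max partner that opposes Myc, was at 20.1 and 26.2 TPM against 85.1 and 38.1 TPM in Itga6low CD80neg, without overlap but short of the threshold (limma adjusted p = 0.114). Of the Myc paralogues, chosen after their values were seen, Mycl was at 14.8 and 5.59 TPM against 8.35 and 5.18 TPM, and Mycn stayed under 1 TPM in all 4 libraries.

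**Figure D2:**
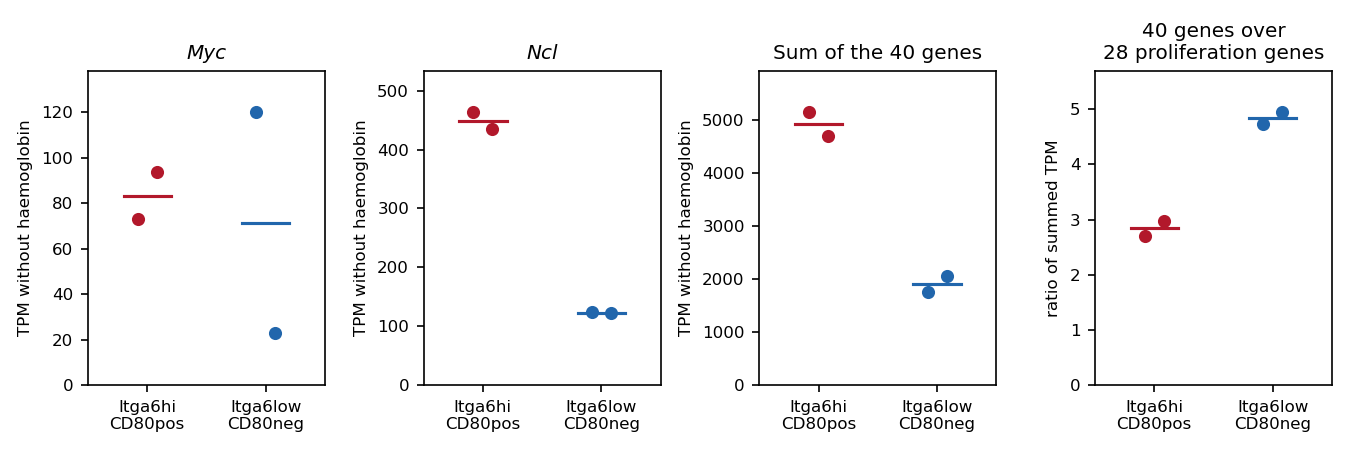
Points are libraries and bars are group means of Myc, of Ncl, of the sum of the 40 genes (all in TPM without haemoglobin) and of the ratio of that sum to the sum of 28 proliferation genes. Ncl and the sum are higher in both Itga6hi CD80pos libraries, Myc overlaps, and the ratio lies below that of both Itga6low CD80neg libraries.

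Of 7 genes of RNA polymerase I and its factors, 3 passed as higher, and their fold changes were far apart. Polr1a and Polr1b encode the pair of large subunits that form the active centre. Polr1a was at 27.5 and 24.8 TPM in Itga6hi CD80pos, against 6.19 and 3.81 TPM in Itga6low CD80neg, and Polr1b at 23.7 and 19.6 TPM against 4.41 and 2.49 TPM. They had the first and second highest of the 40 fold changes, Polr1b with a log2 fold change of 2.38 ± 0.40 (SE, limma adjusted p = 0.0251) and Polr1a with 2.21 ± 0.36 (adjusted p = 0.0243). Polr1c and Polr1d, subunits that polymerase I shares with polymerase III, were at 103.6 and 85.6 TPM against 63.8 and 40.1 TPM, and at 273 and 276 TPM against 118 and 176 TPM. Their log2 fold changes were 0.88 and 0.92, and neither passed. Within a library, the ratio of Polr1a to Polr1c was 0.265 and 0.289 in Itga6hi CD80pos, against 0.0970 and 0.0950 in Itga6low CD80neg, without overlap. Polr1b to Polr1c gave 0.229 and 0.228 against 0.0692 and 0.0621. Polr1e, the remaining polymerase I subunit among these 7 genes, did not follow, at 31.5 and 24.4 TPM against 14.8 and 16.3 TPM. Its ratio to Polr1c overlapped, at 0.304 and 0.285 against 0.232 and 0.407.

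Of the factors that bring polymerase I to the rRNA genes, Rrn3 was higher and Ubtf did not pass. Rrn3, the initiation factor that responds to growth signals, was at 32.8 and 30.5 TPM against 13.4 and 12.7 TPM in Itga6low CD80neg (log2 fold change 1.21 ± 0.26 SE, limma adjusted p = 0.0405). Ubtf, which coats active rRNA genes, was at 76.7 and 73.8 TPM against 53.1 and 33.1 TPM (log2 fold change 0.83, adjusted p = 0.122 by limma). Both genes had groups without overlap.

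The abundant nucleolar proteins all passed as higher. Npm1, a histone and ribosomal protein chaperone, was the most abundant of the 40, at 1164 and 1129 TPM against 321 and 491 TPM in Itga6low CD80neg. Ncl, the nucleolin that binds nascent rRNA (chr1:86344719-86359400, minus strand), was at 464 and 435 TPM against 124 and 122 TPM, the lowest adjusted p of the 40 (log2 fold change 1.86 ± 0.20 SE, limma adjusted p = 0.0119). Nolc1, a chaperone of snoRNPs, was at 101.1 and 83.7 TPM against 20.9 and 24.1 TPM. Npm1 lost its call under 1 of 5 scalings (adjusted p up to 0.0621 by limma). These 3 genes held 33.6 and 35.1% of the summed TPM of the 40 in Itga6hi CD80pos and 26.7 and 30.9% in Itga6low CD80neg.

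The core proteins of the box C/D snoRNP, which methylates rRNA riboses, were all higher. Fbl, the methyltransferase fibrillarin, was at 247 and 222 TPM against 53.9 and 65.1 TPM in Itga6low CD80neg. Nop56 was at 214 and 172 TPM against 55.8 and 56.7 TPM, and Nop58 at 249 and 212 TPM against 77.8 and 73.5 TPM. All 3 passed under each of the 5 scalings, with log2 fold changes from 1.59 to 1.97. The ratio of the scaffold proteins Nop56 to Nop58 was 0.860 and 0.810 in Itga6hi CD80pos and 0.717 and 0.771 in Itga6low CD80neg, without overlap.

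The box H/ACA snoRNP, which turns uridine into pseudouridine and also serves telomerase, had 2 of 4 genes higher. Dkc1, the pseudouridine synthase dyskerin, was at 77.5 and 62.0 TPM against 21.1 and 18.2 TPM in Itga6low CD80neg, and Gar1 at 110.2 and 100.5 TPM against 36.2 and 36.9 TPM, and both passed. The small partners Nhp2 and Nop10 did not pass. Nhp2 was at 341 and 318 TPM against 105 and 237 TPM (limma adjusted p = 0.153), and Nop10 at 93.8 and 79.2 TPM against 41.5 and 51.2 TPM (limma adjusted p = 0.0650). Nop10 relative to Dkc1 was 1.21 and 1.28 in Itga6hi CD80pos and 1.97 and 2.82 in Itga6low CD80neg, and Gar1 relative to Dkc1 was 1.42 and 1.62 against 1.72 and 2.03, both without overlap. Nhp2 relative to Dkc1 overlapped, at 4.40 and 5.13 against 4.999 and 13.04.

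Among the 8 genes of small-subunit assembly 5 passed as higher. Rrp12, a factor of subunit export, was at 25.3 and 22.6 TPM against 4.98 and 3.92 TPM in Itga6low CD80neg, with the third highest fold change of the 40 (log2 2.20 ± 0.33 SE). Noc4l was at 51.1 and 44.2 TPM against 11.4 and 12.6 TPM, Rrp9, a protein of a snoRNP needed for early cleavage, at 68.9 and 59.5 TPM against 17.3 and 23.7 TPM, and Bysl at 29.0 and 24.2 TPM against 8.94 and 7.61 TPM. Nob1, the nuclease of the last cut of the small-subunit rRNA, was at 57.9 and 46.8 TPM against 22.2 and 25.8 TPM, and its call was lost under 2 of 5 scalings (limma adjusted p up to 0.0715). Utp20, Nop14 and Wdr43 did not pass, though Utp20 did under 3 of 5 scalings, and Nop14 and Wdr43 under 1. Utp20, a scaffold of the early particle, was at 10.3 and 10.2 TPM against 4.51 and 1.26 TPM, a wide spread in Itga6low CD80neg, and Nop14 at 26.1 and 26.1 TPM against 17.8 and 9.94 TPM. Wdr43 had the lowest fold change of the 40, at 71.9 and 74.3 TPM against 61.9 and 54.2 TPM (log2 0.33 ± 0.21 SE, limma adjusted p = 0.330).

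Of the 14 genes of large-subunit assembly 8 passed as higher and the other 6 had groups without overlap. Nop2, an rRNA methyltransferase, was at 78.2 and 62.6 TPM against 15.1 and 17.2 TPM in Itga6low CD80neg, the highest fold change of this role (log2 2.05 ± 0.26 SE, limma adjusted p = 0.0153). Noc2l was at 94.1 and 79.0 TPM against 24.2 and 20.9 TPM, and Rrs1 at 70.5 and 63.4 TPM against 17.5 and 19.99 TPM. Pes1, Bop1 and Wdr12 form one complex that acts on the large-subunit precursor. Bop1 was at 83.4 and 71.6 TPM against 24.0 and 25.5 TPM and Wdr12 at 28.6 and 28.5 TPM against 7.98 and 12.2 TPM, and both passed, Wdr12 under 4 of 5 scalings. Pes1, at 97.7 and 81.7 TPM against 36.6 and 51.6 TPM, did not (limma adjusted p = 0.0628), and its ratio to Bop1 was 1.17 and 1.14 in Itga6hi CD80pos and 1.53 and 2.02 in Itga6low CD80neg. Ddx21, an RNA helicase of the nucleolus, was at 92.7 and 78.6 TPM against 28.3 and 29.7 TPM, Nop16 at 96.3 and 82.0 TPM against 30.7 and 36.0 TPM and Ppan at 49.3 and 43.0 TPM against 13.9 and 16.9 TPM, and these 3 passed. Ebna1bp2 was at 130.7 and 119 TPM against 41.5 and 68.2 TPM. Mrto4, which has pseudogenes annotated under its own symbol, was at 95.7 and 80.6 TPM against 28.8 and 47.5 TPM, and Nip7 at 69.7 and 59.3 TPM against 20.03 and 32.5 TPM. Rrp1b was at 19.1 and 11.9 TPM against 6.12 and 3.35 TPM. These 4 and Gnl3 did not pass, with limma adjusted p from 0.0532 for Nip7 to 0.0945 for Gnl3. Counting deposited TPM, where all 40 passed, Rrp1b passed under 4 of 5 scalings, Ebna1bp2, Mrto4 and Nip7 under 2, and Gnl3 under 1. Gnl3, the nucleostemin of stem and dividing cells, had the lowest fold change of this role, at 93.2 and 78.5 TPM against 49.3 and 55.3 TPM (log2 0.70 ± 0.23 SE).

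**Figure D3:**
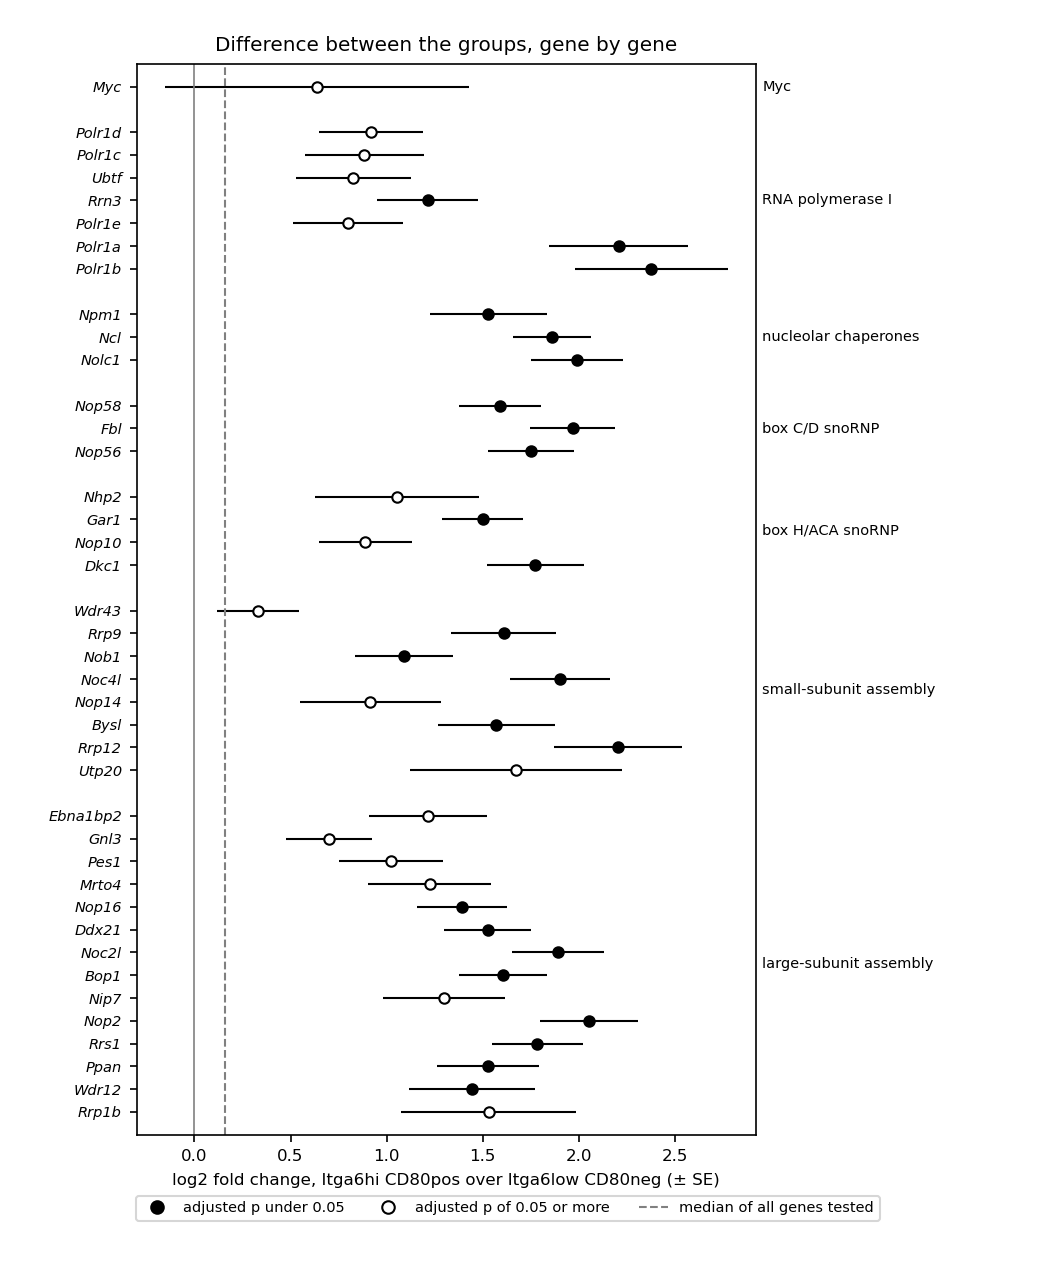
Log2 fold change of each gene, Itga6hi CD80pos over Itga6low CD80neg, with its SE from limma; filled points have an adjusted p under 0.05, and the dashed line is the median of all genes tested. All 40 points lie right of the dashed line, from 0.33 for Wdr43 to 2.38 for Polr1b.

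By mean TPM, Npm1 stood first and Utp20 last of the 40 in both groups. Ncl, second in Itga6hi CD80pos at 449 ± 20.2 TPM, averaged 123 ± 1.11 TPM in Itga6low CD80neg (SD, n = 2 each), below Nhp2 and Polr1d there. The difference between the groups held across ways of scaling the libraries: 21 of 40 genes passed as higher under each of 5 scalings, counting the one used here, and all 40 fold changes stayed above 0 in each. The median of the 40 genes exceeded that of all genes by 1.37 on the log2 scale here, and by 1.24 under quantile normalization and 1.45 on deposited TPM.

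The libraries of a group did not vary alike. Between the Itga6hi CD80pos libraries 1 of 40 genes differed by more than 1.5-fold (Rrp1b, named after its values were seen), and between the Itga6low CD80neg libraries 14 did. In the Itga6low CD80neg pair the direction went with transcript length. Of the 10 genes with the shortest annotated coding transcripts (1042 to 1658 bases), 9 were higher in replicate 2, and of the 10 with the longest (3998 to 10012 bases), 2 were. Spearman's rho of the log2 difference (replicate 1 minus replicate 2) with length was 0.50 over the 40 genes and 0.45 over 11995 tested coding genes, given as a description, since genes share their library and are not replicates. Between the Itga6hi CD80pos libraries it was -0.02 and 0.01. The log2 fold change between the groups had a rho of 0.27 with length over the 40 genes and 0.05 over the 11995. Its median was 1.16 over the 10 shortest and 1.63 over the 10 longest. The part of length in the fold changes, and in ratios of genes of unlike length such as Polr1a to Polr1c, was not tested.

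**Figure D4:**
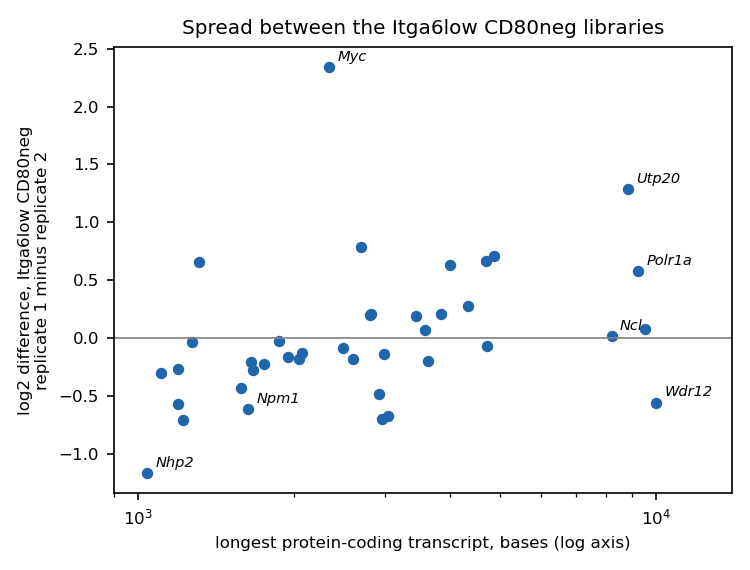
Each point is 1 of the 40 genes, by the length of its longest annotated protein-coding transcript (log axis) and the log2 difference of Itga6low CD80neg replicate 1 minus replicate 2. Short transcripts such as Nhp2 and Npm1 lie below 0 and long ones such as Utp20 and Polr1a above it, while Wdr12, the longest, lies below 0 and Myc lies apart at 2.34.

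Other genes of ribosome biogenesis were higher in part. Of 170 tested genes in 6 further lists, 34 were higher and 1 was lower, where 7.71% of all genes tested were higher and 10.8% lower. The median log2 fold change of the 170 was 0.88. The count higher was 160 on deposited TPM, 67 with mitochondrial, ribosomal protein and keratin genes left out as well, and 0 by limma without either Itga6hi CD80pos library (11 and 19 at an unadjusted p under 0.05). In small-subunit assembly 11 of 47 were higher, among them Nol6 at 52.7 and 48.5 TPM against 13.1 and 6.72 TPM in Itga6low CD80neg, and Utp4 at 73.2 and 75.8 TPM against 14.7 and 20.9 TPM. Wdr36 was at 34.9 and 50.01 TPM against 12.2 and 12.5 TPM, and Nol10 at 18.9 and 17.95 TPM against 5.95 and 4.41 TPM. In large-subunit assembly 18 of 54 were higher, among them Nol9, a polynucleotide kinase of rRNA processing, at 26.6 and 22.8 TPM against 6.63 and 4.63 TPM, and Wdr18 at 41.3 and 30.6 TPM against 11.1 and 9.36 TPM. Pa2g4 was at 262 and 224 TPM against 62.4 and 88.7 TPM, and the helicase Ddx18 at 62.7 and 58.9 TPM against 16.9 and 24.2 TPM. Of 11 snoRNP assembly genes 1 was higher, near the share of all genes. It was the ATPase Ruvbl2, at 86.8 and 79.2 TPM against 20.3 and 21.3 TPM. Of 24 genes of the exosome and rRNA trimming 4 were higher. The exosome subunit Exosc6 was at 5.67 and 11.001 TPM against 0 and 1.20 TPM, and Exosc4 at 34.9985 and 29.8 TPM against 13.1 and 13.98 TPM. The nuclease Dis3 was at 22.9 and 19.6 TPM against 7.17 and 8.56 TPM, and the nuclease Xrn2 at 49.4 and 47.6 TPM against 21.2 and 22.6 TPM. Without either Itga6low CD80neg library the share of all genes higher rose. So did the counts in small-subunit and snoRNP assembly, while the exosome count rose only without replicate 2.

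Of 13 further polymerase I genes, most of them subunits shared with other polymerases or promoter factors, 0 passed by limma (3 at an unadjusted p under 0.05), and their median log2 fold change was 0.30. The count was 9 on deposited TPM, where 57.0% of all genes tested were higher. It also rose without Itga6low CD80neg replicate 2, as did the share of all genes higher. Polr2f and Polr2e, subunits of all 3 nuclear polymerases, were at 238 and 276 TPM against 177 and 293 TPM in Itga6low CD80neg, and at 100.4 and 105.5 TPM against 48.5 and 66.4 TPM. Of 22 polymerase III genes limma called 0 higher (5 at an unadjusted p under 0.05) and 1 lower, with a median of 0.56. The count higher was 18 on deposited TPM, where 57.0% of all genes tested were higher. It also rose without either Itga6low CD80neg library, as did the share of all genes higher. The lower gene was Polr3gl, a paralogue of the subunit gene Polr3g, at 8.74 and 6.36 TPM against 35.9 and 22.7 TPM (log2 fold change -1.80 ± 0.38 SE, limma adjusted p = 0.0381), and it lost its call without Itga6low CD80neg replicate 1.

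**Figure D5:**
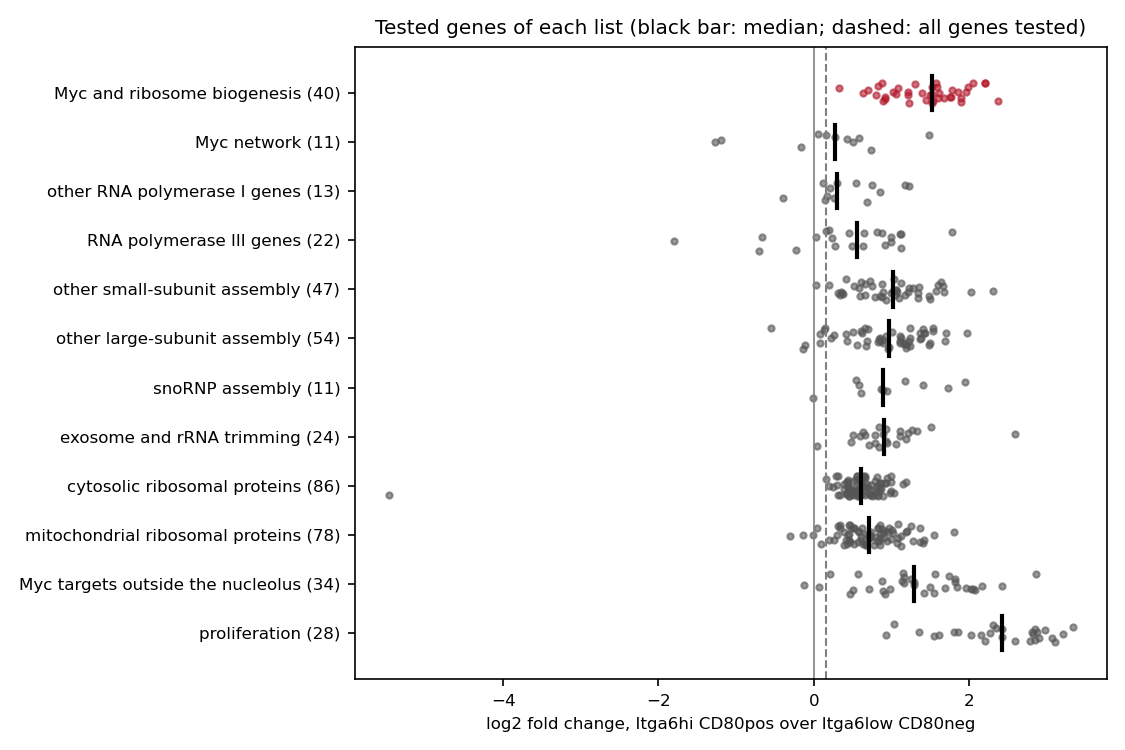
Log2 fold change (Itga6hi CD80pos over Itga6low CD80neg) of each tested gene, by list, with the number tested in brackets; black bars are list medians and the dashed line is the median of all genes tested. The 40 genes have a median of 1.53, proliferation genes 2.42 and cytosolic ribosomal protein genes 0.60.

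For the ribosomal protein genes, whose products the pathway assembles, the result depended on 1 library. Of 86 tested cytosolic ribosomal protein genes limma called 0 higher (7 at an unadjusted p under 0.05) and 1 lower, with a median log2 fold change of 0.60. Without Itga6low CD80neg replicate 2, 70 of the 86 were higher, and 29 were on deposited TPM. On deposited TPM 57.0% of all genes tested were higher, a larger share than that of these 86 genes. The share of all genes higher without that library is given above with the 40 genes. The 1 lower gene of the 86 was Rpl39l, at 0 and 0.0976 TPM against 39.6 and 52.0 TPM, a near copy of Rpl39, so its reads are uncertain. Of 78 mitochondrial ribosomal protein genes 6 were higher, with a median of 0.71, and the count was 29 without Itga6low CD80neg replicate 2 and 74 on deposited TPM. Under the scaling used here 7.71% of all genes tested were higher, so the 6 of 78 were near the share of all genes. On deposited TPM that share was 57.0%. Of these 6, Mrpl12 was at 159.7 and 119 TPM against 29.9 and 50.3 TPM, Mrps18b at 71.98 and 54.3 TPM against 20.04 and 25.6 TPM, Mrpl38 at 73.1 and 52.8 TPM against 21.6 and 24.2 TPM and Mrps5 at 75.4 and 60.6 TPM against 29.5 and 22.3 TPM. The summed level of the 40 genes relative to that of cytosolic ribosomal protein genes was 0.0250 and 0.0222 in Itga6hi CD80pos, against 0.0159 and 0.0122 in Itga6low CD80neg, without overlap.

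Many Myc target genes outside the nucleolus and most proliferation genes were higher too. Of 34 tested Myc targets 19 were higher and 0 lower, with a median log2 fold change of 1.30, where 7.71% of all genes tested were higher. The count was 32 on deposited TPM, where 57.0% of all genes were higher. With no filter on low values limma called 0 of them (25 at an unadjusted p under 0.05), against 0.0326% of all genes higher. Shmt1, a cytosolic enzyme of one-carbon metabolism, was at 40.2 and 32.6 TPM against 3.78 and 4.51 TPM in Itga6low CD80neg, and Tfrc, the transferrin receptor, at 28.4 and 22.7 TPM against 2.65 and 5.62 TPM. Shmt2, the mitochondrial counterpart of Shmt1, was at 175 and 153 TPM against 32.9 and 38.6 TPM, and Gart, an enzyme of purine synthesis, at 94.9 and 73.7 TPM against 22.3 and 16.1 TPM. These 4 had the highest fold changes among the called targets. Of 28 proliferation genes 26 were higher, with a median of 2.42, above that of the 40 genes. Their count was 28 on deposited TPM and 1 with no filter on low values. The mitotic kinase Plk1 was at 43.2 and 34.5 TPM against 3.12 and 2.73 TPM, and Top2a, a topoisomerase, at 83.7 and 74.99 TPM against 8.61 and 6.79 TPM. Tk1, a thymidine kinase, was at 97.9 and 72.02 TPM against 10.1 and 7.68 TPM, and Mcm5, of the replicative helicase, at 90.9 and 66.2 TPM against 6.22 and 11.1 TPM. The 40 genes summed to 2.71 and 2.98 times the proliferation genes in Itga6hi CD80pos, and to 4.73 and 4.95 times in Itga6low CD80neg. Relative to keratin genes their sum was 0.0613 and 0.0625 in Itga6hi CD80pos and 0.0980 and 0.0670 in Itga6low CD80neg, so both ratios lay below those of Itga6low CD80neg.

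Of 25 genes that carry growth signals to rRNA synthesis or restrain it, 4 were higher and 0 lower. The count higher rose without Itga6low CD80neg replicate 1, as did the share of all genes higher. Rps6ka1, a growth factor-responsive kinase that acts on Rrn3, was at 45.3 and 43.4 TPM against 3.94 and 3.36 TPM in Itga6low CD80neg (log2 fold change 3.29 ± 0.30 SE, limma adjusted p = 0.00890). Ddit4, an inhibitor of mTOR signalling, was also higher, at 257 and 229 TPM against 39.0 and 62.3 TPM, as was the tumour suppressor Trp53, at 123 and 108 TPM against 43.8 and 27.8 TPM.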

How the data were processed

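The authors deposited 1 table of TPM per gene for 4 libraries, each column summing to 1000000; per the submitters' processing notes they used kallisto 0.44.0 and mm10. The annotation, strand setting and summing to genes are not given in the sources used here, and depth is unknown. The 14 alpha, beta and theta globin entries were left out and each column rescaled. Genes with at least 1 deposited TPM in at least 2 libraries were tested (13468), as log2(TPM + 1), with limma 3.58.1 in R 4.3.3 (lmFit, eBayes with trend), two-sided, Benjamini-Hochberg adjusted over all of them. Fold changes on this scale understate those of low genes. An exact permutation test of 2 against 2 libraries cannot go below p = 0.333, so none is given. The fit was checked on simulated data with an equal spread in both groups, unlike these libraries, so the check cannot vouch for the calls here. The 40 genes and all lists were chosen with earlier results of these data known. All 40 are named; from other lists, up to 4 called genes of largest fold change with at least 5 TPM and no overlap, or the 2 most abundant where none was called, of which 1 is not reported here; Col3a1 and Dct are the most abundant markers of their lists. Positions and snoRNAs come from GENCODE M21, promoters from RefSeq. Pseudogenes were sought only under a gene's own symbol, so those under other names may be missed for any of the 40 genes. Of the 40 genes, 15 overlap a gene on the other strand, whose reads may not be told apart.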

Additional observations from a re-analysis of the deposited data

How the results depend on the processing

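The alternatives were 4 other scalings, pseudocounts of 0.1 and 5, no filter, a mean of at least 5 TPM, each library left out and a replicate block; leaving out libraries with the filter applied again, and a filter on rescaled values (24 of the 40 genes higher), were chosen after seeing the data. On deposited TPM 7686 genes were higher and 1277 lower, against 1039 and 1458 here, all 40 genes passed, their median was 2.72, and 160 of the other ribosome biogenesis genes were higher. With mitochondrial, ribosomal protein, haemoglobin and keratin genes left out, 1811 were higher and 1483 lower, 32 of the 40 passed, their median was 1.77, and 67 of the others were higher. The median of all genes moved to 0.24 under median-of-ratios scaling and 0.27 under quantile normalization, and that of the 40 was 1.60 under the first of these and 1.27 with a pseudocount of 5. With no filter, limma called 10 genes higher and 112 lower (3156 and 3697 at an unadjusted p under 0.05), and 0 of the 40 and 0 of the others. A mean of at least 5 TPM tested fewer genes and gave 823 lower. With 1 library left out, where a lone library is assumed to vary like the other group, genes higher ranged from 0 to 1844, genes lower from 0 to 2385, the 40 genes' calls from 0 to 29, their median from 1.43 to 1.59, the others' calls from 0 to 74 and the log2 fold change of Myc from -0.53 to 1.81. With the filter applied again, genes higher were 70 and 133 without Itga6hi CD80pos replicates 1 and 2, and 2461 and 2171 without Itga6low CD80neg replicates 1 and 2, while genes lower were 627, 733, 872 and 1877. The 40 genes' calls were then 0, 2, 31 and 32, their median 1.43 to 1.59, at 1.44 without Itga6low CD80neg replicate 1, and the others' calls 0, 0, 69 and 84. The cause of these changes was not tested. The replicate block gave 24 of the 40 (2 calls lost and 2 gained), 1176 genes higher and 1802 lower; same-numbered libraries had deviations correlated at 0.106 over genes, and the labels do not say that the numbers pair them. TPM hold no depth, so low values such as Utp20 in Itga6low CD80neg carry no counting interval.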
